A study of Homo sapiens with 12 samples.

Results

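The genes described here encode SR proteins, heterogeneous nuclear ribonucleoproteins (hnRNPs), the kinases that phosphorylate SR proteins, SR-like coactivators, and factors that recognise the branch point and the end of the intron. They were listed by name, 48 in all, and a gene was measured where the platform annotation gave a probe set exactly 1 gene symbol. Of the 48 genes, 39 were measured, among 22465 genes tested. These comprised 10 of 12 SR proteins, all 6 SR-like regulators and coactivators, all 6 SR protein kinases, 13 of 20 hnRNP genes and all 4 branch point and 3' splice site factors. The other 9, SRSF2, SRSF9, HNRNPA1, HNRNPA3, HNRNPDL, HNRNPH2, HNRNPK, PTBP1 and PTBP3, lay only on probe sets with several symbols and were not analysed here.

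RNA of the human bladder cancer lines RT112 and 5637, both long established in culture, had been hybridised to Affymetrix whole-transcript arrays. CM272, which inhibits both G9a, a histone methyltransferase, and DNA methyltransferases, was used at its IC50, the dose of half-maximal inhibition. The groups used were RT112 control, RT112 with CM272 and 5637 with CM272, each with 3 arrays. The labels say only control for the cells without CM272, and name no vehicle and no length of treatment. Untreated here means control, whether or not a vehicle was given. Replicates are numbered, and nothing says that they were grown separately. The p-values thus reflect only how far these arrays vary, which may be technical.

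All values are log2, on the deposited scale unless a scaling is named. Untreated 5637 entered no comparison: its values are displaced against the probe set names, with a correlation of 0.0274 between the means of untreated and treated 5637 over 67528 transcript clusters, against 0.966 over 2995 other probe sets. How 5637 responded to the compound was therefore not measured here. All 7 epithelial markers tested lay above the array medians in each group used, as did 2 of 6 leukocyte markers and 1 to 3 of 6 stromal and endothelial markers. Array medians lay between 5.05 and 5.10 in untreated RT112 and between 4.40 and 4.44 in treated RT112, and the median change of all genes was -0.57. This shift coincides with the treatment, and a difference in processing and an effect of the compound on it cannot be told apart. The change of each member described is therefore given as deposited, centred (every array on its median) and quantile-normalized. That of genes outside the list is given mainly as deposited. Centring and quantile normalization put the median change of all genes at 0.08 and -0.02. A gene is said to have risen or fallen only where limma called it the same way in all 3 scalings, at an adjusted p under 0.05. Over all genes 2433 rose, as many as were called higher on the deposited values, and 6285 fell, as many as were called lower after centring.

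SR proteins carry RNA recognition motifs and a tail rich in arginine and serine. They bind exonic enhancers and recruit the spliceosome, and phosphorylation of that tail, by SRPK kinases in the cytoplasm and CLK kinases in the nucleus, sets where they are and what they bind. Many hnRNPs bind silencers and oppose them, and the balance of both families sets the inclusion of many alternative exons. Many of these genes limit their own level through exons that expose the transcript to nonsense-mediated decay. A transcript-cluster value sums over the isoforms of a gene, so exon choice was not measured.

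The promoters of the 2 members with the largest rise and the 2 with the largest fall after centring are shown because the compound inhibits DNA methyltransferases, which act on cytosines in CG dinucleotides. Each run is the 250 bases before the RefSeq start of the gene (GRCh38.p14), 5′ to 3′ on the gene's strand, with each CG in capitals. DNA methylation was not measured in these data. SF3B1 lies on the minus strand (chr2:197435029-197435278), SRSF5 on the plus strand (chr14:69766892-69767141), U2AF1 on the minus strand (chr21:43107571-43107820) and SRPK1 on the minus strand (chr6:35921099-35921348).
SF3B1: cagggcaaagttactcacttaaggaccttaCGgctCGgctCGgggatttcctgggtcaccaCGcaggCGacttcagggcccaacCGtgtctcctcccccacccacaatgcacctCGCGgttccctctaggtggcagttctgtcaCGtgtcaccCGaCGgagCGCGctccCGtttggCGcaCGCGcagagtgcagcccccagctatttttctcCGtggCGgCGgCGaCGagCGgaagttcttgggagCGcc
SRSF5: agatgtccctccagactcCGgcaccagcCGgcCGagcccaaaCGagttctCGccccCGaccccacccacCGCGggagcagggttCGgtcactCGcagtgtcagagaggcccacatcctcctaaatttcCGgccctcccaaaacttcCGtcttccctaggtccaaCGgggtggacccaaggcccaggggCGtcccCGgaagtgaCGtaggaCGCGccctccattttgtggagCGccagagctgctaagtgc
U2AF1: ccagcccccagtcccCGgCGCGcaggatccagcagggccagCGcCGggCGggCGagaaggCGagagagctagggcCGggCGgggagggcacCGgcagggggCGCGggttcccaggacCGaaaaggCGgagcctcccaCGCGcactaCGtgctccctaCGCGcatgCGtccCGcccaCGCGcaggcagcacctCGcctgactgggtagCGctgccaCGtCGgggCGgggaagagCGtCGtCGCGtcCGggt
SRPK1: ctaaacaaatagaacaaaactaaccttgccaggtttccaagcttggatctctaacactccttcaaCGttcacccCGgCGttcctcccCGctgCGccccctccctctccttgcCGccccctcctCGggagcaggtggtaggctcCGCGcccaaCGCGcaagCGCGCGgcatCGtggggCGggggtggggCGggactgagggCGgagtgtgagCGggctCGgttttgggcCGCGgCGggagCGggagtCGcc
The SF3B1 run holds 24 CG dinucleotides, the SRSF5 run 19, the U2AF1 run 34 and the SRPK1 run 25. Promoters were found in the RefSeq table for 37 of the 39 measured members, all but TRA2A and RBM39, with a median of 25 CG and a range of 2 to 38. Each gene was given a single start, the first listed for it, and any other starts were not examined. The median over all 27305 promoters of the table was 11. That set, also used for the shares of all promoters below, was not limited to genes tested or to genes as bright as the members. The 9 members that rose had a median of 21 and a range of 3 to 34, and the 7 that fell a median of 25 and a range of 21 to 38, so these ranges overlap. The 21 that did neither had a median of 26 and a range of 2 to 36. The letters GGGCGG, the GC box, searched on both strands, occurred in 5 of the 9 promoters of members that rose and 5 of the 7 that fell. They occurred in 13 of the 21 members that did neither, and in 62.2% of the 37, against 42.3% of all promoters. The letters CCGGAA, an ETS core searched likewise, occurred in 2 of 9, 1 of 7 and 4 of 21, against 14.8% of all promoters. In the same order, CCAAT occurred in 3, 2 and 10, against 33.0%, TATAAA in 1, 0 and 4, against 11.1%, and CACGTG in 2, 0 and 4, against 6.49%.

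In RT112, treatment was accompanied by changes of these genes in both directions. Of 39 measured members 9 rose (23.1%), against 10.8% of all genes, and 7 fell (17.9%), against 28% of all genes. All members but SRSF12 lay above the array medians, while the shares of all genes here and below include dim genes. With the fit restricted to genes above the median of all probe sets, 2297 genes and 9 members rose, and 3716 genes and 7 members fell. SRSF12 was not in that fit, and its number of genes is not given, so these counts yield no shares. Shares among genes as bright as the members were not computed. The 7 that fell became 4 without treated array 3, without untreated array 3, with the replicate number as a block, with only the 6 arrays compared or with an intensity trend and robust spread. As deposited and after centring, the rises were led by SF3B1, a subunit of the U2 snRNP at the branch point, SRSF5 and HNRNPL, and after quantile normalization by SF3B1, CLK3 and HNRNPL. The falls were led, as deposited and after centring, by U2AF1, which reads the AG at the end of the intron, SRPK1 and HNRNPR, and after quantile normalization by U2AF1, SRSF10 and SRPK1. As deposited, 9 members were higher and 25 lower by limma (74.2% of all genes were lower), after centring 15 and 7 (39.8% and 28% of all genes), and after quantile normalization 13 and 21 (32.6% and 35.5%). The median change of the members was -0.54, 0.10 and -0.24 in these scalings. On the deposited values the groups did not overlap for 9 members that were higher and 25 that were lower, against 11.1% and 74.3% of all genes, and after centring for 17 and 6, against 41.9% and 29.7%. In bulk cultures, fewer cells that express a gene and less of its RNA per cell cannot be told apart. Of the epithelial markers, 5 of 7 rose and 1 fell, and their part in these results was not tested.

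**Figure D1:**
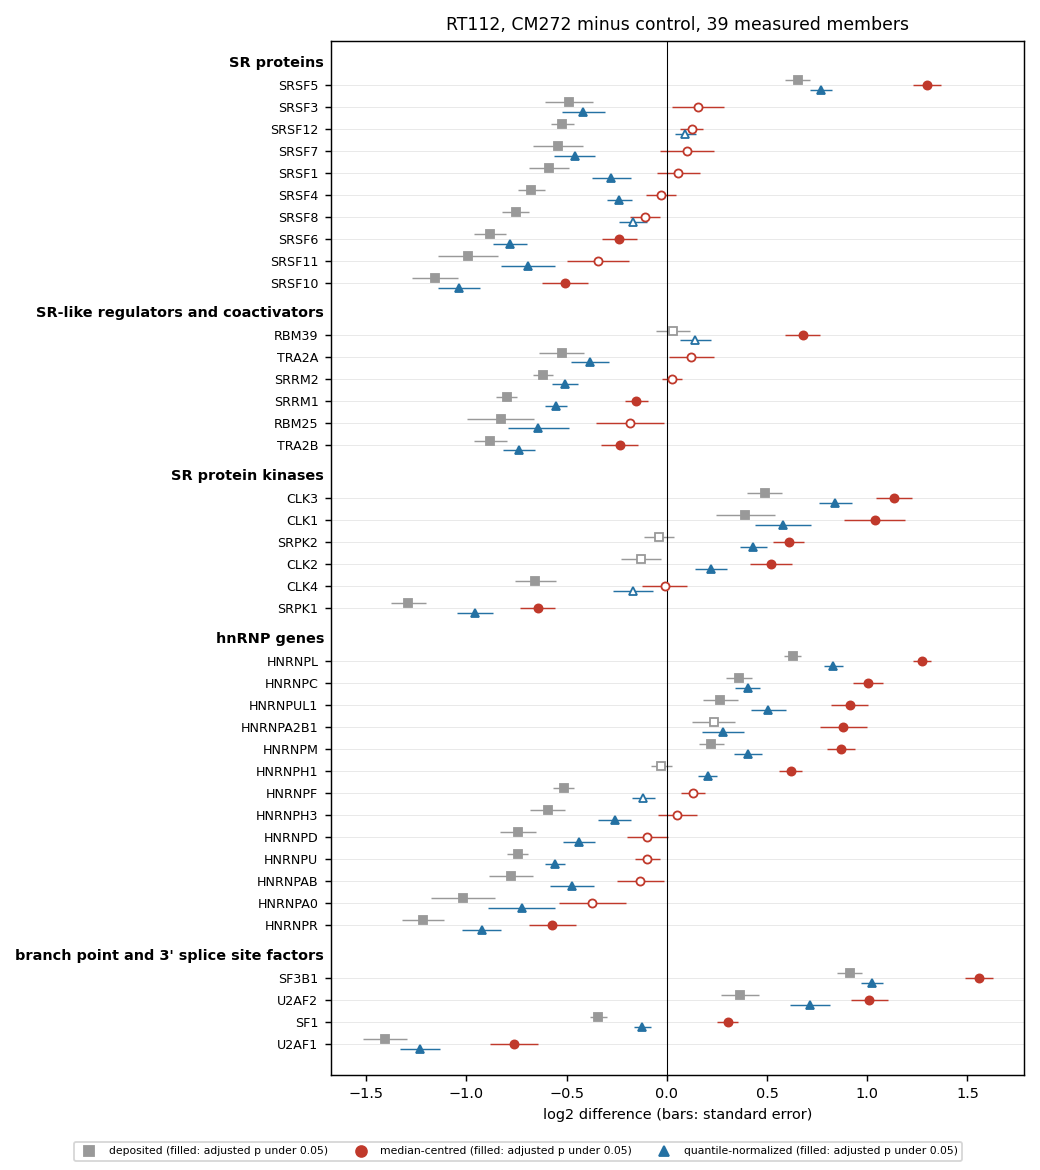
Log2 difference between treated and untreated RT112 for each of the 39 measured members, by role, in the 3 scalings, with standard errors as bars and filled symbols for an adjusted p under 0.05 (limma). SF3B1, SRSF5 and HNRNPL stand to the right of 0 in each scaling and U2AF1, SRPK1, HNRNPR and SRSF10 to the left, while among SR proteins SRSF1, SRSF3, SRSF7 and SRSF12 are below 0 as deposited and above 0 after centring.

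Among factors of the branch point and 3' splice site, SF3B1 and U2AF2 rose and U2AF1 fell. SF3B1 stood at 11.31, 11.41 and 11.56 in untreated RT112, at 12.34, 12.34 and 12.34 in treated RT112 and at 12.56, 12.63 and 12.53 in treated 5637. Every treated array lay above every untreated one. The change in RT112 was 0.91 ± 0.06 (SE) as deposited (adjusted p = 1.85e-06, limma), 1.56 ± 0.07 after centring, which is 2.94-fold, and 1.02 ± 0.06 after quantile normalization. U2AF1, the small subunit of the factor that marks the 3' splice site, read 10.91, 10.82 and 11.18 untreated, 9.72, 9.58 and 9.40 treated and 9.40, 9.44 and 9.28 in treated 5637. Its untreated arrays were all higher than its treated ones. The change was -1.41 ± 0.11 (adjusted p = 4.24e-06, limma), -0.76 ± 0.12 after centring and -1.23 ± 0.10 after quantile normalization. U2AF1 has a near-identical annotated copy, and probe sequences were not used here, so the share of that copy in its value is uncertain.

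U2AF2, the large subunit, which binds the polypyrimidine tract, moved the other way. Its arrays read 8.43, 8.69 and 8.29 untreated, 8.86, 8.79 and 8.86 in treated RT112 and 8.62, 8.80 and 8.69 in treated 5637. The treated RT112 arrays were all above the untreated ones, by 0.10 between the closest. The change was 0.37 ± 0.10 (adjusted p = 0.00705, limma), 1.01 ± 0.09 after centring and 0.71 ± 0.10 after quantile normalization. SF1, which binds the branch point before the U2 snRNP does, had no direction common to the scalings. Its values were 10.00, 9.95 and 9.93 untreated and 9.61, 9.65 and 9.59 treated, a change of -0.34 ± 0.04, against 0.30 ± 0.05 after centring and -0.12 ± 0.04 after quantile normalization.

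Of the 10 measured SR proteins, SRSF5 rose, SRSF10 and SRSF6 fell, and 7 had no call shared by the scalings. As deposited 1 was called higher and 9 lower, against 10.8% and 74.2% of all genes. After centring 1 was higher and 2 lower, against 39.8% and 28%, and after quantile normalization 1 and 7, against 32.6% and 35.5%. The median change was -0.63, 0.01 and -0.35 in these scalings. SRSF5, which binds purine-rich exonic enhancers, stood at 11.55, 11.55 and 11.77 in untreated RT112, at 12.32, 12.25 and 12.26 in treated RT112 and at 12.62, 12.63 and 12.59 in treated 5637. The 3 groups did not overlap. The change in RT112 was 0.65 ± 0.06 (adjusted p = 1.47e-05, limma), 1.30 ± 0.07 after centring, or 2.46-fold, and 0.77 ± 0.05 after quantile normalization. SRSF10, a splicing repressor when dephosphorylated, read 11.36, 11.78 and 11.80 untreated, 10.46, 10.51 and 10.51 treated and 10.51, 10.69 and 10.51 in treated 5637. All its untreated arrays were higher. The change was -1.15 ± 0.11 (adjusted p = 1.84e-05, limma), -0.51 ± 0.11 after centring and -1.04 ± 0.11 after quantile normalization. A second, dimmer probe set of SRSF10 had a mean of 9.36 untreated and 7.67 treated, a difference of -1.69 as deposited.

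SRSF6, another enhancer-binding SR protein, read 11.92, 11.61 and 11.81 untreated, 10.85, 10.88 and 10.96 treated and 10.98, 11.08 and 10.99 in treated 5637. Its change was -0.88 ± 0.08 as deposited, -0.24 ± 0.09 after centring (adjusted p = 0.0383, limma) and -0.78 ± 0.09 after quantile normalization. After centring its groups overlapped, and the call was lost under 8 of 12 alternatives, leaving out any 1 treated array among them, with an adjusted p of up to 0.121. SRSF11 read 9.21, 9.20 and 9.59 untreated and 8.51, 8.36 and 8.17 treated, a change of -0.99 ± 0.15, of -0.34 ± 0.16 after centring (adjusted p = 0.0784) and of -0.69 ± 0.14 after quantile normalization. SRSF3, the smallest SR protein, read 11.88, 11.66 and 12.22 untreated and 11.46, 11.39 and 11.44 treated, a change of -0.49 ± 0.12 as deposited, 0.16 ± 0.13 after centring and -0.42 ± 0.11 after quantile normalization, with the call lower in all but the centred values. SRSF12 lay below the array medians in every group, with a change of -0.52 ± 0.06 as deposited, 0.12 ± 0.06 after centring and 0.09 ± 0.05 after quantile normalization. The other 4, SRSF1, SRSF4, SRSF7 and SRSF8, had changes of -0.75 to -0.54 as deposited, -0.11 to 0.10 after centring and -0.46 to -0.17 after quantile normalization. SRSF8 arose as a copy of SRSF2, so its value may hold signal of that gene.

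**Figure D2:**
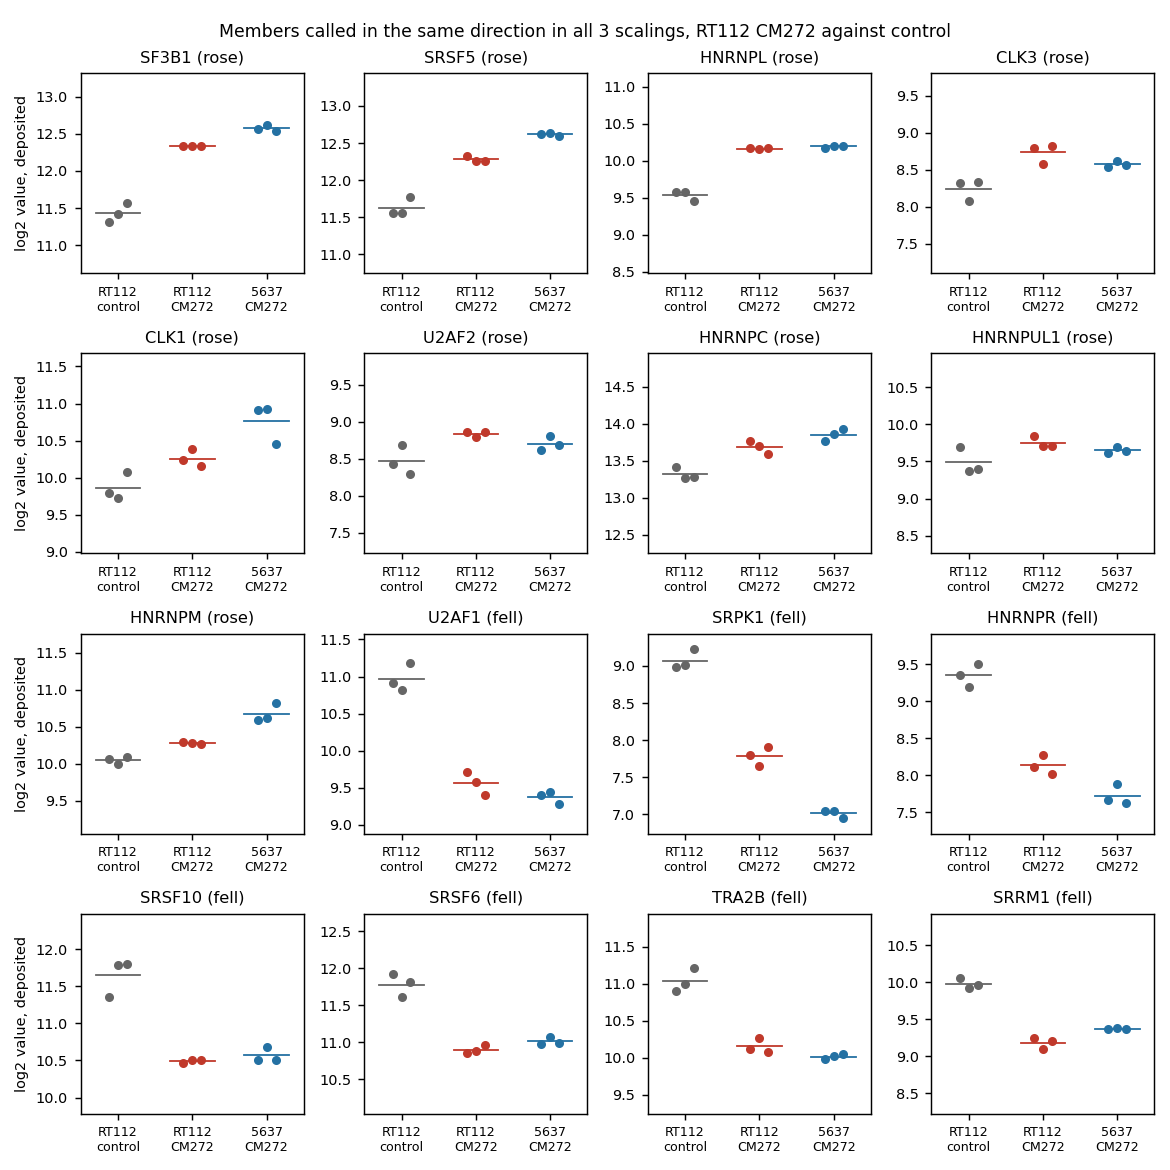
Deposited log2 value of every array (points) and group means (lines) for the 16 members that rose or fell in RT112. The 9 that rose are higher in each treated than in each untreated RT112 array, and the 7 that fell are lower. The mean of treated 5637 is on the treated side of the untreated RT112 mean in each panel. These groups differ in both cell line and treatment, and the response of 5637 was not measured. Their array medians also differ, with means of 4.38 in treated 5637 and 5.07 in untreated RT112. The panels were chosen by the difference of treated RT112 from these same untreated arrays. The side on which treated 5637 lies is therefore no separate support. The share of all genes placed likewise is not given.

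The kinases of SR proteins split. CLK3 and CLK1, nuclear kinases that release SR proteins from speckles, rose, and SRPK1, which drives their import from the cytoplasm, fell. CLK3 read 8.32, 8.08 and 8.34 untreated, 8.79, 8.58 and 8.82 in treated RT112 and 8.54, 8.62 and 8.56 in treated 5637. The treated RT112 arrays were all above the untreated ones. The change was 0.49 ± 0.09 (adjusted p = 0.000727, limma), 1.13 ± 0.09 after centring, or 2.20-fold, and 0.84 ± 0.08 after quantile normalization. CLK1 read 9.79, 9.72 and 10.08 untreated, 10.23, 10.39 and 10.15 in treated RT112 and 10.91, 10.93 and 10.45 in treated 5637. Its closest treated and untreated RT112 arrays were 0.07 apart. The change was 0.39 ± 0.15 (adjusted p = 0.0337, limma), 1.04 ± 0.15 after centring and 0.58 ± 0.14 after quantile normalization. That call was lost under 5 of 12 alternatives, with an adjusted p of up to 0.116.

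SRPK1 stood at 8.98, 9.01 and 9.23 untreated, at 7.80, 7.64 and 7.91 in treated RT112 and at 7.04, 7.04 and 6.95 in treated 5637. The 3 groups did not overlap. The change in RT112 was -1.29 ± 0.09 (adjusted p = 1.62e-06, limma), -0.64 ± 0.09 after centring and -0.96 ± 0.09 after quantile normalization. SRPK2, its paralogue, read 7.25, 7.14 and 7.18 untreated and 7.29, 7.09 and 7.09 treated. These groups overlapped, with a change of -0.04 ± 0.07 (adjusted p = 0.643), while centring gave 0.61 ± 0.08 and quantile normalization 0.43 ± 0.07. Whether the changes of SRPK1 and SRPK2 differ was not tested. CLK2 had a difference of -0.13 ± 0.10 as deposited (adjusted p = 0.257), 0.52 ± 0.10 after centring and 0.22 ± 0.08 after quantile normalization. CLK4 had -0.66 ± 0.10, -0.01 ± 0.11 (adjusted p = 0.94) and -0.17 ± 0.10 in these scalings, so neither had a shared call.

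Among SR-like regulators and coactivators, TRA2B and SRRM1 fell, 2 of 6 against 28% of all genes, and 0 of 6 rose, against 10.8%. The median change of the 6 was -0.71 as deposited, -0.06 after centring and -0.53 after quantile normalization. TRA2B, which binds GAA-rich enhancers, read 10.90, 11.00 and 11.21 untreated, 10.12, 10.27 and 10.08 treated and 9.98, 10.02 and 10.05 in treated 5637. Its change was -0.88 ± 0.08, -0.23 ± 0.09 after centring (adjusted p = 0.0498, limma) and -0.74 ± 0.08 after quantile normalization. SRRM1, a coactivator of splicing, read 10.06, 9.92 and 9.96 untreated, 9.25, 9.10 and 9.20 treated and 9.37, 9.38 and 9.37 in treated 5637. Its change was -0.80 ± 0.05, -0.15 ± 0.06 after centring (adjusted p = 0.0403, limma) and -0.55 ± 0.05 after quantile normalization. After centring the groups of both genes overlapped, and each call was lost under 8 of 12 alternatives, with an adjusted p of up to 0.147 for TRA2B and 0.126 for SRRM1. SRRM2, a scaffold of nuclear speckles, had 1 value in all 3 treated RT112 arrays, 10.58, and a change of -0.62 ± 0.05 as deposited, 0.03 ± 0.05 after centring and -0.51 ± 0.07 after quantile normalization. TRA2A, the paralogue of TRA2B, had -0.52 ± 0.11, 0.12 ± 0.11 and -0.38 ± 0.09 in these scalings. Both genes were called lower in all but the centred values. RBM25 had -0.83 ± 0.17, -0.18 ± 0.17 and -0.64 ± 0.15. RBM39, a relative of U2AF2, had 0.03 ± 0.08 as deposited (adjusted p = 0.729), 0.68 ± 0.09 after centring and 0.14 ± 0.08 after quantile normalization.

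Of the 13 measured hnRNP genes, HNRNPL, HNRNPC, HNRNPUL1 and HNRNPM rose and HNRNPR fell. As deposited 4 were called higher and 7 lower, against 10.8% and 74.2% of all genes. After centring 6 were higher and 1 lower, against 39.8% and 28%, and after quantile normalization 6 and 6, against 32.6% and 35.5%. The median change was -0.51, 0.13 and -0.12 in these scalings, and -0.0266 as deposited without the genes of equal replicates, HNRNPAB and HNRNPF. Whether hnRNP genes and SR proteins differ was not tested. HNRNPL, which binds CA-rich repeats, stood at 9.58, 9.57 and 9.46 in untreated RT112, at 10.17, 10.16 and 10.17 in treated RT112 and at 10.17, 10.20 and 10.21 in treated 5637. All treated arrays lay above every untreated one, and the treated lines overlapped, with an exact value, 10.17, found in both. The change in RT112 was 0.63 ± 0.04 (adjusted p = 1.64e-06, limma), 1.27 ± 0.04 after centring, or 2.42-fold, and 0.83 ± 0.05 after quantile normalization.

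HNRNPC, which binds runs of uridine, read 13.41, 13.27 and 13.28 untreated, 13.76, 13.69 and 13.59 treated and 13.76, 13.87 and 13.93 in treated 5637. Its treated arrays were all above its untreated ones. The change was 0.36 ± 0.07 (adjusted p = 0.000924, limma), 1.01 ± 0.07 after centring and 0.40 ± 0.06 after quantile normalization. HNRNPUL1, a relative of HNRNPU, read 9.69, 9.37 and 9.39 untreated, 9.85, 9.71 and 9.71 treated and 9.61, 9.70 and 9.63 in treated 5637. Its closest treated and untreated RT112 arrays were 0.02 apart. The change was 0.27 ± 0.09 (adjusted p = 0.0189, limma), 0.91 ± 0.09 after centring and 0.51 ± 0.09 after quantile normalization. The call was lost without untreated array 2, untreated array 3 or treated array 1, with an adjusted p of up to 0.0698. HNRNPM, named after its values were seen, read 10.07, 10.00 and 10.09 untreated and 10.29, 10.28 and 10.26 treated, a change of 0.22 ± 0.06 (adjusted p = 0.00941, limma), of 0.87 ± 0.07 after centring and of 0.41 ± 0.07 after quantile normalization.

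HNRNPR, a relative of SYNCRIP, stood at 9.35, 9.19 and 9.51 untreated, at 8.11, 8.28 and 8.01 in treated RT112 and at 7.66, 7.88 and 7.62 in treated 5637. The 3 groups did not overlap. The change in RT112 was -1.22 ± 0.11 (adjusted p = 7.91e-06, limma), -0.57 ± 0.12 after centring and -0.92 ± 0.10 after quantile normalization. Its second, dimmer probe set had a mean of 6.80 untreated and 4.86 treated, a difference of -1.93 as deposited. That treated mean lay near the treated RT112 array medians of 4.40 to 4.44, and the other scalings are not given for this probe set. HNRNPA0 read 9.68, 8.94 and 9.35 untreated and 8.25, 8.30 and 8.37 treated, with the untreated arrays more widely spread. Its change was -1.02 ± 0.16, -0.37 ± 0.17 after centring (adjusted p = 0.0764) and -0.72 ± 0.17 after quantile normalization. HNRNPAB had 1 value in all 3 treated RT112 arrays, 8.55, and a change of -0.78 ± 0.11 as deposited, -0.13 ± 0.12 after centring and -0.47 ± 0.11 after quantile normalization. The other 6, HNRNPA2B1, HNRNPD, HNRNPF, HNRNPH1, HNRNPH3 and HNRNPU, had changes of -0.74 to 0.23 as deposited, -0.10 to 0.88 after centring and -0.56 to 0.28 after quantile normalization.

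Other genes of splicing and RNA surveillance were split as well. Of 45 measured genes of the core spliceosome 13 rose and 7 fell, with a median change of -0.20 as deposited and 0.45 after centring. SLU7 and PRPF18, which act in the second step of splicing, rose by 1.70 ± 0.07 and 1.39 ± 0.06 as deposited, and the helicase gene DHX15 and SNRNP40, of the U5 snRNP, had changes of -1.77 ± 0.13 and -1.19 ± 0.05. Of 36 other splicing regulators 5 rose and 8 fell, with a median of -0.35 as deposited and 0.29 after centring. ILF2 and RBM22 rose by 0.97 ± 0.08 and 0.93 ± 0.08, RBM22 with 1 value, 10.17, in all 3 treated RT112 arrays. TIA1, which aids recognition of weak 5' splice sites, and SREK1 had changes of -1.26 ± 0.12 and -1.21 ± 0.15. Of 10 other kinases and phosphatases of splicing factors 4 rose and 0 fell, with a median of 0.20 as deposited and 0.85 after centring, DYRK1A at 0.69 ± 0.07 and PPP1R10 at 0.61 ± 0.07. Of 13 genes of nonsense-mediated decay and the exon junction complex 7 rose and 3 fell, with a median of 0.28 as deposited and 0.93 after centring. EIF4A3, the helicase at the core of that complex, and SMG8 rose by 1.17 ± 0.15 and 0.88 ± 0.11, while MAGOHB and SMG1, the kinase of the decay pathway, had changes of -1.02 ± 0.10 and -0.94 ± 0.10. After centring the falls of these named genes were smaller and the rises larger. DHX15 then changed by -1.13 ± 0.14, SMG1 by -0.30 ± 0.11 (adjusted p = 0.0378, limma) and SLU7 by 2.35 ± 0.08. All these named genes were called in all 3 scalings, and 10.8% of all genes rose and 28% fell, dim genes included.

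**Figure D3:**
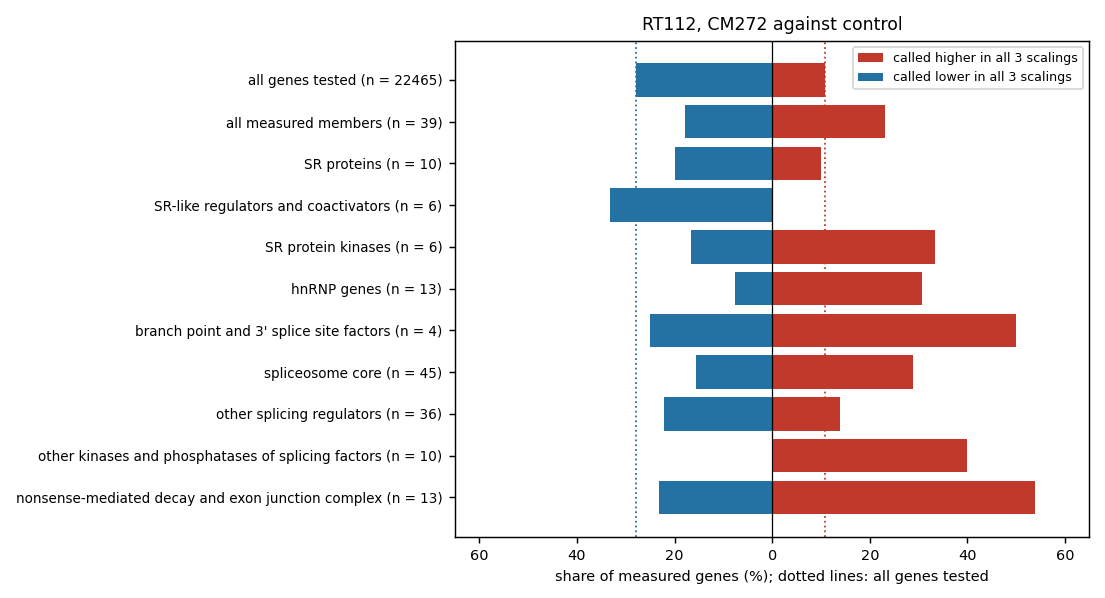
Share of measured genes, in percent, that rose (right) or fell (left) in treated RT112 in all 3 scalings, for each class of members and for 4 lists of other splicing and RNA surveillance genes, with dotted lines at the shares of all genes. The share of all genes that rose is 10.8% and the share that fell 28%, dim genes included.

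Treated 5637 was then set against treated RT112, a comparison of cell lines that both carry the compound and that shares the treated RT112 arrays with the comparison above. Array medians had means of 4.38 and 4.43. Of the 39 members 14 were higher in treated 5637 in all 3 scalings (35.9%), against 16.4% of all genes, and 3 were lower (7.69%), against 13.5%. As deposited 14 were higher and 4 lower (17.1% and 15.8% of all genes), after centring 14 and 4 (18.6% and 13.7%), and after quantile normalization 16 and 3 (17.5% and 15.3%). The median difference of the members was 0.12, 0.16 and 0.18 in these scalings, against -0.01, 0.03 and 0.02 for all genes. As deposited the lines did not overlap for 18 members that were higher and 8 that were lower, against 21.3% and 21.6% of all genes, and after centring for 21 and 5, against 36.4% and 17.9%.

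SRSF11 and TRA2A differed most. SRSF11 stood at 8.51, 8.36 and 8.17 in treated RT112 and at 10.28, 10.45 and 10.01 in treated 5637. The difference was 1.90 ± 0.15 (adjusted p = 2.07e-05, limma) and 1.94 ± 0.16 after centring, which is 3.84-fold. TRA2A stood at 10.36, 10.20 and 10.10 in treated RT112 and at 12.08, 12.20 and 11.75 in treated 5637. For both genes each treated 5637 array lay above each RT112 array, treated or not. The difference for TRA2A was 1.79 ± 0.11 (adjusted p = 6.04e-06, limma) and 1.83 ± 0.11 after centring, 3.55-fold, while its paralogue TRA2B differed by -0.14 ± 0.08 and was not called (adjusted p = 0.27).

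SRSF7, an SR protein with a zinc knuckle, read 11.21, 11.28 and 11.21 in treated RT112 and 12.13, 12.43 and 12.24 in treated 5637, a difference of 1.03 ± 0.12 (adjusted p = 0.000254, limma). SRSF1, the founding member of the family, read 8.51, 8.57 and 8.29 and 9.24, 9.10 and 9.23, a difference of 0.73 ± 0.10 (adjusted p = 0.000478). In both genes the lines did not overlap. SRPK1 had a difference of -0.77 ± 0.09 (adjusted p = 0.000166), HNRNPF, with 1 value in all 3 treated RT112 arrays, -0.29 ± 0.05 (adjusted p = 0.00261) and HNRNPR -0.41 ± 0.11 (adjusted p = 0.0158). The call of HNRNPR was lost under 6 of 12 alternatives, the mean of its probe sets among them, with an adjusted p of up to 0.425. HNRNPH3 differed by -0.23 ± 0.09 and was not called (adjusted p = 0.0808). The other members called higher, named by their calls after the values were seen, were SF1, HNRNPH1, HNRNPAB, CLK1, CLK4, CLK2, HNRNPM, SRSF5, SF3B1 and SRRM1, with differences of 0.19 to 0.63. Of these, calls were lost under some alternatives for CLK1 (6 of 12), SF3B1 (5), SRRM1 (4) and CLK2 (3).

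**Figure D4:**
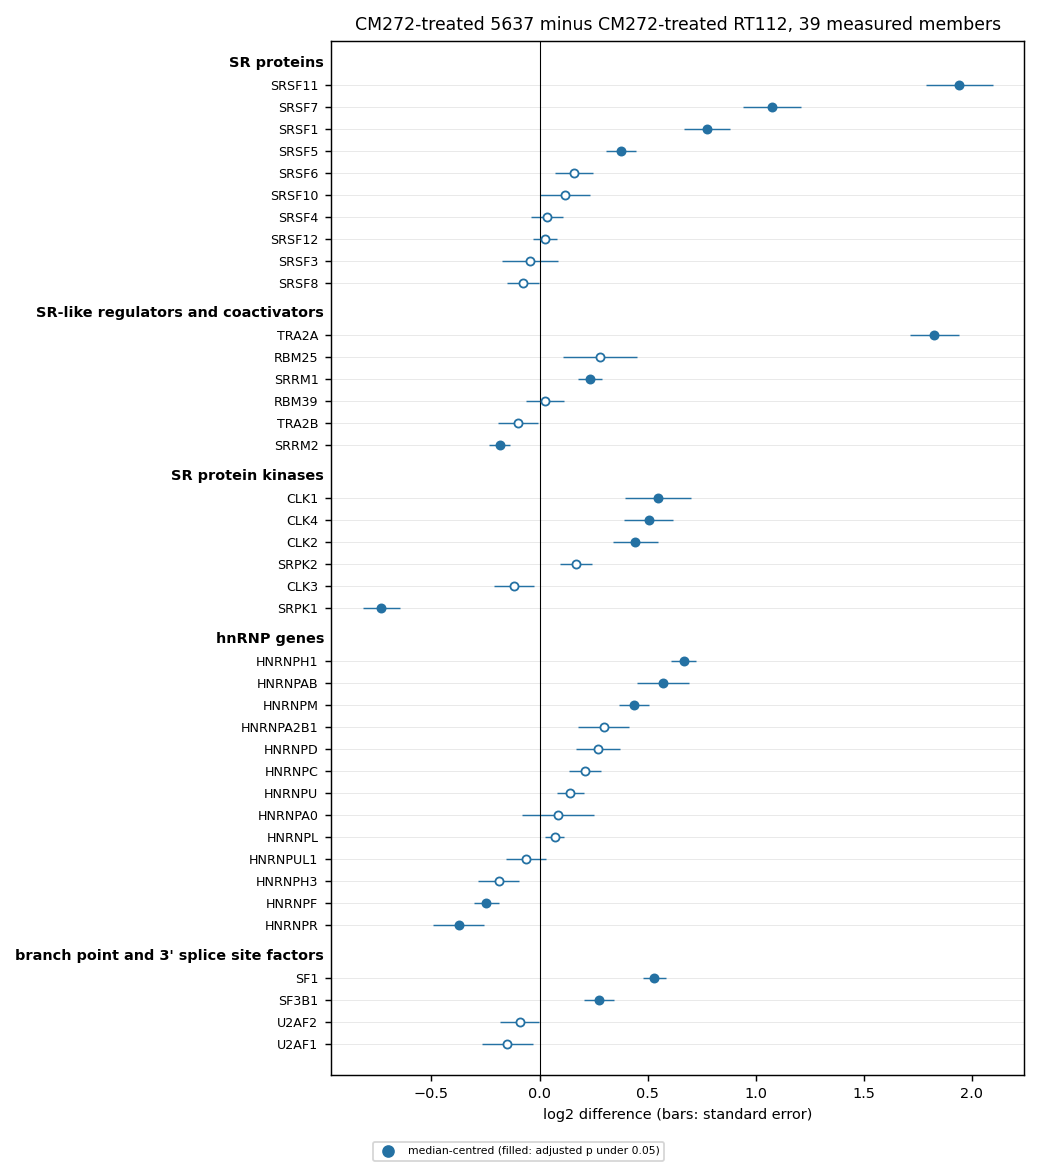
Log2 difference between treated 5637 and treated RT112 for each of the 39 measured members after centring, with standard errors as bars and filled symbols for an adjusted p under 0.05 (limma). SRSF11 and TRA2A stand farthest to the right, at 1.94 and 1.83, and SRPK1 farthest to the left, at -0.73.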

How the data were processed

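The deposited series table holds log2 values of 12 arrays and 70523 probe sets. Per the submitters' processing notes, the authors used RMA and Affymetrix Expression Console; no version or build is named there, and whether the values were changed further is not known. Of the probe sets, 23781 had 1 gene symbol, giving 22465 genes, each represented by its brightest probe set over the 9 arrays used. Centring subtracted each array's median. All genes went into a single limma 3.58.1 model (R 4.3.3) of 3 group means with 6 residual degrees of freedom, with Benjamini-Hochberg adjustment over all of them. The limma fit was also run on simulated data with no array-wide shift and no equal replicates, without the rule of 3 scalings. That run therefore did not test how these features affect the calls. In treated RT112 2726 genes had equal values in all 3 arrays, among them 3 members (SRRM2, HNRNPAB and HNRNPF). In treated 5637 3440 genes did, with 0 members among them, and in untreated RT112 0 genes did. Ties of fewer than all 3 arrays were not counted. They occurred in treated RT112 for SF3B1, U2AF2 and HNRNPUL1, among other members. Some exact values also recurred in both treated lines, as for HNRNPL, HNRNPC and SRSF10. The part of such values in the standard errors and p-values was not tested. The number of arrays limits the precision. Members and lists were chosen with earlier results of these data known. Named by rule were all kinases, SR-like genes and branch point and 3' splice site factors, the 3 lowest and 3 highest SR proteins and hnRNP genes by centred change in RT112, the 4 highest and 4 lowest members between the lines, and up to 2 genes each way of each other list. The remaining members are named to account for all 39.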

Additional observations from a re-analysis of the deposited data

How the results depend on the processing

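With centring in place of the deposited values, genes called higher in RT112 went from 2433 to 8937 and lower from 16660 to 6285, members higher from 9 to 15 and lower from 25 to 7. Quantile normalization gave 7321 and 7972 genes. Restricting to genes above the median of all probe sets gave 2297 genes higher and 9019 lower, and 2297 and 3716 in all 3 scalings. Fewer genes were tested there, and their number is not given. Changes turned positive after centring for SRSF12 (0.12), SRSF3 (0.16), SRRM2 (0.0267), TRA2A (0.12), CLK2 (0.52), SRPK2 (0.61), SF1 (0.30), HNRNPH1 (0.62), HNRNPF (0.13), SRSF7 (0.10), SRSF1 (0.0578) and HNRNPH3 (0.0517), and after quantile normalization for SRSF12 (0.0919), CLK2 (0.22), HNRNPH1 (0.20) and SRPK2 (0.43). Class medians did so after centring for SR proteins (0.0141), kinases (0.56) and hnRNP genes (0.13), and for kinases after quantile normalization (0.33). The median of branch point and 3' splice site factors ranged from -0.0413, without untreated RT112 array 3, to 0.0643 when 1 array was left out. Members that fell in all 3 scalings numbered 7, and 4 with an intensity trend and robust spread, with only the 6 arrays compared (an alternative chosen after seeing the data) or with the replicate number as a block. Leaving out 1 array gave 4 to 8, with 4 without treated array 3 or untreated array 3. Between the lines, 4 members were called lower on the deposited values, 2 without genes of equal replicates, and 3 to 5 when 1 array was left out. Without genes of equal replicates the median change of the hnRNP genes in RT112 was -0.0266, against -0.51 with them. The labels do not say whether the replicate numbers pair the samples. Deviations from the group means correlated at -0.06, -0.09 and -0.08 between same-numbered arrays of untreated and treated RT112. With 3 arrays per group these deviations sum to 0, so the correlations do not settle whether the samples were paired. Untreated 5637 was left out, so that line has no control here.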

Other observations

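The replicate spread of the members differed between the groups. The median SD of 3 arrays over the 39 measured members was 0.14 in untreated RT112, 0.06 in treated RT112 and 0.08 in treated 5637, against 0.09, 0.07 and 0.06 over all genes. The SD was smaller in treated than in untreated RT112 for 31 of 39 members (79.5%), against 61.5% of all genes. Values equal in all 3 arrays, which give an SD of 0, were found for 2726 genes in treated RT112, 3440 in treated 5637 and 0 in untreated RT112. The part of equal values in the spread, and of the spread in the calls, was not tested.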
